A study of Rattus norvegicus with 31 samples.

Results

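Cyclic AMP signaling was followed through 8 genes in rats fed diets of different carbohydrate to fat ratio. These were the glucagon receptor gene Gcgr, the G protein subunit gene Gng13, and Rgs3, a regulator of G protein signaling. The others were the phosphodiesterase genes Pde3b, Pde4b and Pde4d, and Ppp1r1a and Crem, which act downstream of the kinase. All 8 were taken as a set of known pathway genes, and several of them had been picked because they differed between the diets. Every probe set annotated to 1 of these genes alone was used, which gave 19 of 31042 probe sets on the array, for 8 of the 14217 genes that have a probe set of their own, 1 each for Gcgr, Pde3b and Gng13, 2 each for Pde4b and Ppp1r1a, 3 each for Pde4d and Rgs3, and 6 for Crem. Because several were selected on their measured log2 difference between the diets, those differences are given below as a description, with their errors. Where a method called some of the genes, the count stands beside its share over all probe sets, restates that choice and supports nothing.

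Total RNA of liver, white (WAT) and brown (BAT) adipose tissue was measured on 31 Affymetrix arrays, 1 per rat and tissue, from 13 male Wistar rats. Rats that were 3 weeks old on arrival received a diet with 65% of its energy from carbohydrate and 15% from fat (L-group, 5 rats), 60 and 20% (M-group, 4 rats) or 35 and 45% (H-group, 4 rats), for 9 weeks and with equal energy intake, and food was withdrawn 17 h before sampling. The L-group ate freely and the M- and H-groups were given matching amounts of energy. The diets differed in soybean oil, not in lard, and all groups shared strain, sex, age and fast. The liver was measured in all 13 rats, and WAT and BAT in the 9 rats of the L- and H-groups, so no M rat has adipose values.

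Cyclic AMP is made at the inner face of the cell membrane by adenylyl cyclases, which stimulatory G proteins switch on and inhibitory G proteins switch off when hormones bind their receptors. It activates protein kinase A, and phosphodiesterases end the signal by cleaving it. In the fasted liver glucagon uses this route to raise glucose output, and in fat cells catecholamines use it to start lipolysis and, in BAT, heat production, while insulin opposes it in part through phosphodiesterase 3B. In the nucleus the kinase acts on CREB and CREM proteins, which bind a short DNA motif, the cyclic AMP response element (CRE). Crem also has an internal promoter with such elements that gives rise to ICER, a short repressor that cyclic AMP itself induces.

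The RefSeq promoter table holds 14 promoters for 6 of the 8 genes on the rat assembly GRCr8, and Pde3b and Ppp1r1a were not matched. The full CRE, TGACGTCA, which reads the same on both strands, was found in 2 of the 14 promoters, both of Crem, against 612 of 33469 promoters of the same length (1.83%). The shorter motif TGACG, searched on both strands and contained in the full CRE, was found in 6 of the 14, of Crem, Pde4d and Rgs3, against 21.2% of all promoters. The 250 bases before the start site are shown for both Crem promoters with a full CRE and for a Pde4d and the Rgs3 promoter with the shorter motif, because these are the genes, of the 6 searched, that hold such letters. All lie on the plus strand, and capitals mark the full CRE in Crem and TGACG or its complement CGTCA in the others.
Crem promoter 2, chr17:58984547-58984796: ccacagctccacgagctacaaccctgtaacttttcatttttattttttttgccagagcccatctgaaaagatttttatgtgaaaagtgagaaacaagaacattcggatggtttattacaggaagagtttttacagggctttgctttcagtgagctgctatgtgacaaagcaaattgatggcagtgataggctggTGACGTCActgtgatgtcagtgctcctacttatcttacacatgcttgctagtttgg
Crem promoter 3, chr17:58985240-58985489: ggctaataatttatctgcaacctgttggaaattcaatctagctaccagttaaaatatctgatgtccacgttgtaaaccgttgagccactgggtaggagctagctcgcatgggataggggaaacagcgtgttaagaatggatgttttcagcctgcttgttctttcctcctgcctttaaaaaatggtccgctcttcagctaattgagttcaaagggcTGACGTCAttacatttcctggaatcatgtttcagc
Pde4d promoter 3, chr2:42592499-42592748: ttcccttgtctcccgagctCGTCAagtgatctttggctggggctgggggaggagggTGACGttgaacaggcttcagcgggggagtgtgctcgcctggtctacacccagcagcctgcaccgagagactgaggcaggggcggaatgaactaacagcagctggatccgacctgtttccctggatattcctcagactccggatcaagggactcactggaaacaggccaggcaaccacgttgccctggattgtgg
Rgs3 promoter, chr5:81093801-81094050: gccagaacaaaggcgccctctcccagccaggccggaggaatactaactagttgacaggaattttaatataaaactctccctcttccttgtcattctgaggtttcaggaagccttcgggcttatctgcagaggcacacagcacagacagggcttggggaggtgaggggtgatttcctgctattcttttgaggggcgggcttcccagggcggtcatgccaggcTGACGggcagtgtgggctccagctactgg
The first base of the CRE shown stands at position -56 from the start site in Crem promoter 2 and at position -35 in promoter 3. Promoter 3 holds another full CRE that begins at position 39 after the start site, in the searched bases that are not shown. A match of letters is not evidence that a factor binds there, and it is not known from these arrays which promoter's transcripts each Crem or Pde4d probe set detects. None of these letters was found in the Gcgr, Pde4b or Gng13 windows.

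The deposited values are on the log2 scale, where a difference of 1 is a doubling, and were summarized in another way for each tissue (RMA for liver, qFARMS for WAT, GCRMA for BAT), so levels and differences were not set against each other between tissues. For a gene with several probe sets the one with the highest mean in the tissue stands for the gene unless stated. The share of all probe sets with a lower mean is given as a mark of how bright a probe set is, which is not how abundant its transcript is. Defining genes of the labelled tissue lay above the median of all probe sets for 7 of 7 hepatocyte genes in liver, 7 of 7 adipocyte genes in WAT and 7 of 8 brown adipocyte genes in BAT. Lists of other cell types reached this too, with 8 of 8 macrophage genes in liver and 6 of 6 smooth muscle genes in WAT and BAT. The count therefore does not single out the tissue. In WAT 25762 of the 31042 probe sets held the same value on all 9 arrays to within 1e-06. Those 25762 include 13 of the 19 probe sets studied here, with all of Gcgr, Pde4d and Gng13. In BAT 11 of 12 skeletal muscle genes lay at the bottom of the scale in every L rat, while H rats 13 and 15 carried them. The mean log2 deviation of the list from each gene's BAT mean was 1.79 and 2.85 in these 2 rats. It was -0.64 and -0.67 in H rats 12 and 16. BAT values are therefore also given without H rats 13 and 15. The other gene of that list, Myh1, read between 13.33 and 13.87 on all 9 BAT arrays. The replicates are separate rats. In these bulk samples fewer cells of a type and less RNA per cell cannot be told apart.

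In the liver the H-group lay below both other groups in Crem and, on the main probe set, below the L-group in Pde4d, whereas Gcgr, Pde3b, Gng13 and Ppp1r1a lay close together on all diets. The method that the authors used to call differentially expressed genes (DEGs), rank products at a false discovery rate of 0.05, called 3 of the 8 genes lower in the H-group than in the L-group (Pde4d, Crem and Rgs3), where it called 0.757% of all probe sets lower, and 1 higher (Pde4b), where it called 0.677% higher. Against the M-group it called Pde4d, Crem and Rgs3 lower again, with a background of 0.345%, and none higher (0.425%). With the dimmer part of the probe sets left out of the ranking (means below the median), Pde4b was no longer called against the L-group, and Crem alone was called against the M-group. Both counts use the same H arrays, and since diet differences chose the genes they say nothing beyond the values. None of the 8 was called in the M-group against the L-group, where rank products called 0.403% of probe sets in either direction. limma judges each probe set by its spread between rats. At an adjusted p under 0.05 it called none of the 8 in any of the 5 comparisons. In liver it called 0.0354% of all probe sets for H against L, 0.0129% for H against M and 0.00644% for M against L. The share was 0.0548% in WAT, or 0.0189% of those that varied, and 0.0% in BAT. The WAT and BAT fits held 25762 and 10370 constant probe sets, which enter the spread that limma pools over probe sets. The liver fit held none, so limma results in adipose tissue and in liver are not alike. At an unadjusted p under 0.05 limma had 2 of the 8 for the H- against the L-group in liver (background 9.05%). It had 3 for the H- against the M-group (5.89%), 0 for the M- against the L-group (4.03%), 1 in WAT (5.84%) and 2 in BAT (4.47%). The adipose backgrounds include constant probe sets, and nothing is read from these counts either.

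Gcgr, the receptor through which glucagon acts on hepatocytes, was bright in the liver, above 89.3% of all probe sets. It averaged 8.30 ± 0.13 in the L-group (SD, n = 5), 8.28 ± 0.07 in the M-group (n = 4) and 8.24 ± 0.04 in the H-group (n = 4). The H-group differed from the L-group by -0.06 with a 95% interval of -0.20 to 0.08, and from the M-group by -0.04 (-0.19 to 0.11). All 13 livers lay between 8.10 and 8.46, and the groups overlapped.

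Gng13, a G protein gamma subunit best known from taste cells, was near the bottom of the liver scale, above 22.1% of probe sets, and averaged 3.27, 3.30 and 3.27 in the L-, M- and H-group. Rgs3, which shortens the active state of inhibitory and Gq proteins, was bright in liver (above 93.5% of probe sets) and varied more from rat to rat than with the diet. Its values were 9.07, 10.09, 8.45, 8.96 and 9.51 in L rats 1 to 5, 9.07, 8.32, 10.07 and 9.88 in M rats 6, 8, 9 and 10, and 10.07, 8.49, 8.16 and 8.06 in H rats 12, 13, 15 and 16. H rat 12 was as high as the highest L and M rats and the other 3 H rats were among the lowest. The H-group differed from the L-group by -0.52 with a standard error (SE) of 0.45 (95% interval -1.49 to 0.45). This difference was -0.98 without H rat 12, but -0.34, -0.31 and -0.30 without H rat 15, H rat 16 or L rat 2, and the rank products call was lost without H rat 16 or L rat 2. Against the M-group the difference was -0.64 ± 0.48 (SE), and it was -1.10 without H rat 12, -0.98 without M rat 8 and -0.39 without M rat 9. That call was lost without H rat 13, H rat 15, H rat 16, M rat 6, M rat 9 or M rat 10. The other 2 Rgs3 probe sets were dimmer and flatter, at -0.16 and -0.01 for the H- against the L-group.

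Of the phosphodiesterases, Pde3b, the insulin-activated enzyme of fat and liver cells, did not separate the diets in liver. It averaged 7.97 ± 0.11, 8.02 ± 0.13 and 7.95 ± 0.14 in the L-, M- and H-group, and the H- minus L-group interval ran from -0.20 to 0.15. Pde4d, a cyclic AMP-specific enzyme with many isoforms from separate promoters, read 6.45, 6.31, 6.67, 6.21 and 6.27 in L rats 1 to 5, 6.93, 6.28, 6.22 and 5.59 in M rats 6, 8, 9 and 10, and 5.39, 6.01, 5.35 and 5.98 in the H rats. The H and L rats did not overlap, a pattern found in 1.46% of probe sets, whereas M rat 10 lay within the H range. The H-group differed from the L-group by -0.70 ± 0.22 (SE; interval -1.17 to -0.22), an L over H ratio of 1.62, and from the M-group by -0.57 ± 0.23, which was -0.35 without M rat 6. The rank products call against the M-group was lost without H rat 12, H rat 15, M rat 6, M rat 8 or M rat 9. The other 2 Pde4d probe sets, which lie lower on the scale, differed by -0.21 ± 0.09 and -0.08 ± 0.05 between the H- and L-group and correlated with the main one at only r = 0.24 and 0.11 over the 13 livers with the diet means removed. The mean of all 3 probe sets gave -0.33.

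Pde4b, the third phosphodiesterase, read 5.70, 6.06, 6.22, 6.14 and 7.58 in L rats 1 to 5, 5.77, 6.60, 7.24 and 7.01 in the M rats, and 7.12, 6.11, 7.52 and 6.93 in the H rats. L rat 5 was the highest of all 13 livers, and the other 4 L rats lay below 3 of the 4 H rats. The H-group differed from the L-group by 0.58 ± 0.38 (SE; interval -0.25 to 1.40), by 0.89 without L rat 5 and by 0.38 without H rat 15, and the rank products call was lost without H rat 12, H rat 15, H rat 16 or L rat 1. Its second probe set moved with the first from rat to rat (r = 0.95 over 13 livers, diet means removed) and gave 0.35 ± 0.28. Against the M-group the difference was 0.27 ± 0.40, and without M rat 6 it was -0.03. The M-group differed from the L-group by 0.31 ± 0.38, and without L rat 5 rank products called Pde4b higher in the M-group.

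Ppp1r1a encodes inhibitor 1, which blocks protein phosphatase 1 once protein kinase A has phosphorylated it. In liver its brighter probe set lay above only 28.8% of all probe sets, with values between 3.33 and 3.75. On this probe set H and M livers differed by -0.18 ± 0.07 (SE), and the second Ppp1r1a probe set gave 0.13 ± 0.06, the opposite sign, for the same groups.

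Crem, whose proteins bind the CRE as activators or repressors, lay above 96.6% of probe sets in liver. It read 10.21, 10.07, 10.15, 10.36 and 9.92 in L rats 1 to 5, 9.95, 10.48, 10.11 and 10.54 in M rats 6, 8, 9 and 10, and 9.71, 9.77, 9.48 and 9.54 in H rats 12, 13, 15 and 16. All 4 H rats lay below all 9 other rats. Such a separation was found in 1.46% of all probe sets for the L-group and in 1.42% for the M-group. The H-group differed from the L-group by -0.52 ± 0.12 (SE; interval -0.78 to -0.25), an L over H ratio of 1.43, and from the M-group by -0.64 ± 0.13 (interval -0.92 to -0.36), while the M-group differed from the L-group by 0.12 ± 0.12. Leaving out each rat in turn gave -0.57 to -0.46 against the L-group and -0.75 to -0.55 against the M-group. The rank products call against the M-group was lost without M rat 8 or M rat 10.

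**Figure D1:**
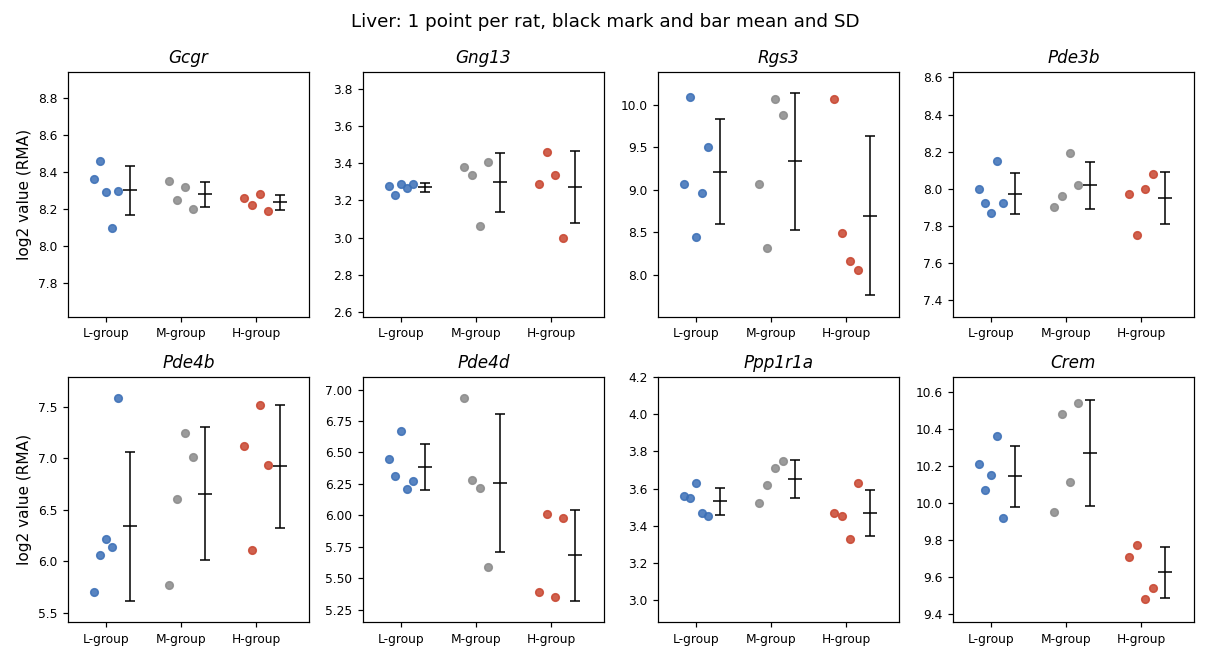
Log2 values (vertical axis, RMA) of the 8 genes in the livers of the L-, M- and H-group, 1 point per rat, with the mean and SD as a black mark and bar; the axes have their own range in each panel. The 4 H rats lie below all other rats in Crem (9.48 to 9.77), Pde4d overlaps only through M rat 10 at 5.59, and H rat 12 stands at 10.07 in Rgs3.

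The 5 other Crem probe sets were dimmer and lay lower in the H-group too. They differed by -0.64 ± 0.14, -0.38 ± 0.11, -0.66 ± 0.20, -0.36 ± 0.07 and -0.45 ± 0.19 (SE) from the L-group and by -0.72, -0.39, -0.62, -0.34 and -0.71 from the M-group, while their M- minus L-group differences ran from -0.03 to 0.26. With the diet means removed, 2 of them followed the brightest probe set closely over the 13 livers (r = 0.83 and 0.78), and 1 did so weakly (r = 0.20). Probe sets of 1 gene share its transcripts and are not separate evidence. Of the 10 marker lists of cell types, 3 had a summed linear value that did not overlap between H and L livers. The nerve and Schwann cell list summed to 84.5 to 102 in the H-group, against 108 to 146 in the L-group, mostly through Mbp, which averaged 5.13 in the H-group and 5.93 in the L-group, beside 4.57 and 4.67 for Ncam1, 4.59 and 4.66 for Sox10, and 3.17 and 3.10 for S100b. The mesothelium list summed to 648 to 709 in the H-group and 506 to 642 in the L-group, with 5 of 5 genes higher. This was mostly through Krt8, its only gene above the median of all probe sets, which averaged 9.31 in the H-group and 9.06 in the L-group. The lymphocyte list summed to 155 to 177 in the H-group and 135 to 149 in the L-group, with 4 of 7 genes higher. This was mostly through Prf1, its only gene above that median, which averaged 5.95 in the H-group and 5.48 in the L-group. limma called no gene of the 3 lists. A sum that moves mostly through 1 gene does not measure how many cells of a type a sample holds. The part of these cell types in the liver differences was not tested.

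**Figure D2:**
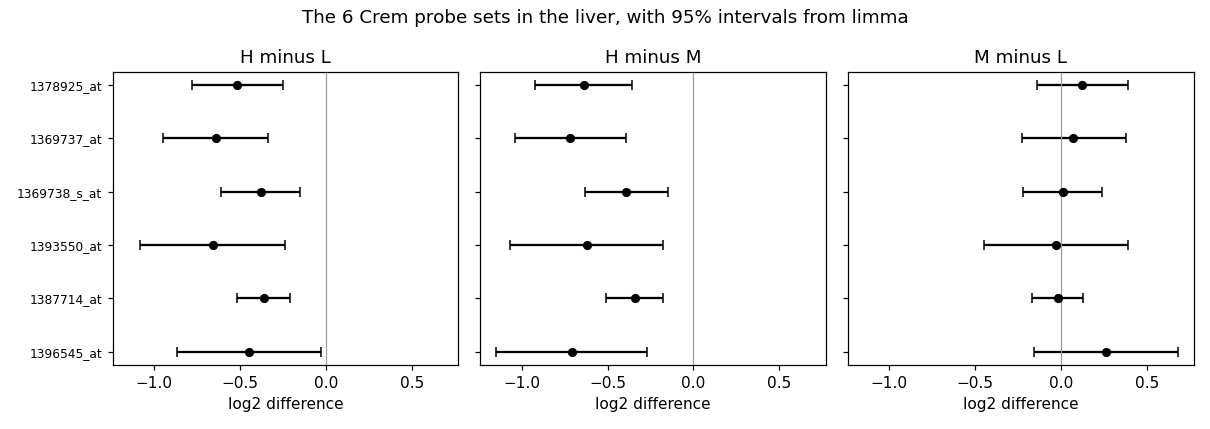
Log2 differences of the 6 Crem probe sets in liver (points) with 95% limma intervals (bars), for the H- minus L-, H- minus M- and M- minus L-group, from the brightest probe set at the top to the dimmest. All 6 lie below 0 in both H comparisons, from -0.66 to -0.36 against L and from -0.72 to -0.34 against M, and the M minus L intervals all include 0.

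In WAT only 5 of the 8 genes had a probe set that varied, and Rgs3 was the gene that separated the diets. Rank products called 4 of the 5 lower in the H-group (Pde3b, Ppp1r1a, Crem and Rgs3). Over all 31042 probe sets it called 1.08% lower, but among the 5280 that varied at all it called 6.36% lower. When only varying probe sets were ranked, an alternative chosen after seeing the data, or only those with a mean above the median, Rgs3 alone of the 4 was called. These counts too restate the choice of genes. limma called none of the 5. It called 17 probe sets in WAT over all 31042, of which 1 varied (0.0189% of the varying ones). The other calls fell on constant probe sets and are no difference in expression.

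Rgs3 read 9.46, 8.97, 8.53 and 8.96 in WAT of H rats 12, 13, 15 and 16, against 10.34, 10.90, 9.64, 9.94 and 10.22 in L rats 1 to 5. The highest H rat was below the lowest L rat, as in 0.18% of all probe sets and 1.06% of those that varied. The difference was -1.23 ± 0.29 (SE; interval -1.91 to -0.55), an L over H ratio of 2.34, and -1.39 to -1.05 when each rat was left out in turn. In WAT 7 of 8 macrophage genes were higher in the H-group, with a median difference of 0.24, and Cd163, a macrophage scavenger receptor, lay at 9.42 to 9.75 in the H-group and 9.19 to 9.38 in the L-group. The macrophage list summed to 13000 to 17600 on the linear scale in the H-group and 11000 to 14900 in the L-group, limma called none of its genes, and its part in the Rgs3 difference was not tested. The other 2 Rgs3 probe sets held 1 value on all arrays, so the mean over the 3 gave -0.41.

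The other 3 called genes overlapped between the groups. Crem read 8.64, 8.44, 8.47 and 8.42 in H rats and 8.74, 8.85, 8.68, 8.66 and 8.47 in L rats, a difference of -0.19 ± 0.08 (SE), and the groups overlapped at H rat 12 and L rat 5. Its other 5 probe sets were constant, which brings the mean over its probe sets to -0.03. Ppp1r1a lay above 92.0% of probe sets in WAT, at 9.71, 9.54, 9.16 and 9.50 in H rats and 9.78, 9.50, 9.98, 9.55 and 9.74 in L rats, a difference of -0.23 ± 0.14, or -0.13 without H rat 15. Pde3b averaged 9.78 ± 0.29 in the H-group (SD, n = 4) and 9.99 ± 0.22 in the L-group (n = 5), a difference of -0.21 ± 0.17 (SE) that was -0.34 without H rat 12, -0.10 without H rat 16 and -0.13 without L rat 3. None of these calls was kept throughout when 1 rat was left out. The Pde3b call was kept only without H rat 12. That of Crem was lost without H rat 13, L rat 1, L rat 2, L rat 3 or L rat 4, and that of Ppp1r1a without H rat 15, L rat 1, L rat 3, L rat 4 or L rat 5. Pde4b averaged 8.72 ± 0.44 in the H-group and 8.68 ± 0.48 in the L-group, and its 2 probe sets again moved together from rat to rat (r = 0.96 over 9 arrays, diet means removed).

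In BAT Gng13 had the largest difference between the diets of the 8 genes, Rgs3 was lower in the H-group as well, and none of the phosphodiesterases separated the groups. Rank products called Rgs3 and Gng13 lower, 2 of 8 genes, and 2 without H rats 13 and 15. It called 1.31% of all probe sets lower, or 1.96% of those that varied. Since diet differences chose the genes, neither count says more than the values. limma called none of the 8 and 0 of all 31042 probe sets, 1387 of which had an unadjusted p under 0.05.

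Gng13 read 4.51, 3.88, 4.61 and 4.54 in BAT of H rats 12, 13, 15 and 16, against 7.48, 7.50, 6.11, 6.13 and 5.87 in L rats 1 to 5. The lowest L rat lay well above the highest H rat, and L rats 1 and 2 stood above the other 3 L rats. The difference was -2.23 ± 0.42 (SE; interval -3.23 to -1.24), an L over H ratio of 4.70. Leaving out 1 rat gave -2.42 to -2.01, and leaving out H rats 13 and 15 gave -2.09. In BAT 0.718% of probe sets separated the groups in this direction, or 1.08% of those that varied. The gene was constant at 6.94 in WAT and, as above, flat and dim in liver. In BAT 6 of 6 smooth muscle genes were also lower in the H-group, with a summed linear value of 441 to 598 against 604 to 1050 in the L-group. The nerve and Schwann cell genes summed to 5000 to 6940 in the H-group and 5270 to 6240 in the L-group. The brown adipocyte list summed to 77900 to 85500 in the H-group and 64800 to 74200 in the L-group, with 6 of its 7 varying genes higher. Of the endothelium genes 4 of 5 were lower in the H-group, while their sum was 1820 to 2050 in the H-group and 1750 to 1860 in the L-group. The part of these cells in the Gng13 difference and in that of Rgs3, given next, was not tested.

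Rgs3 read 7.79, 7.51, 7.20 and 6.83 in BAT of the H rats and 8.58, 9.80, 7.51, 8.56 and 9.02 in L rats 1 to 5. L rat 3 lay within the H range. The difference was -1.36 ± 0.45 (SE; interval -2.42 to -0.31), an L over H ratio of 2.57, and -1.39 without H rats 13 and 15. Its other 2 probe sets lay near the bottom of the scale and gave -0.02 and 0.08, so the mean of the 3 was -0.44. Rgs2, a relative of Rgs3, varied widely between rats in BAT. It averaged 9.94 ± 1.41 in the H-group (SD) and 10.71 ± 0.94 in the L-group, a difference of -0.77 ± 0.76 (SE), beside -0.28 ± 0.24 in WAT and -0.25 ± 0.12 in liver.

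Gcgr was low in BAT and partly at a common value, at 3.50, 3.26, 3.50 and 3.50 in the H rats and 3.50, 4.56, 3.64, 3.55 and 4.08 in the L rats. The L-group values spread upward from the value that most H rats share. The difference was -0.43 ± 0.23 (SE), or -0.25 without L rat 2, and rank products called it lower without H rat 16 or L rat 1. Pde3b was among the brightest probe sets of BAT (above 97.0% of them) and read 11.05, 10.47, 10.68 and 9.23 in H rats and 10.11, 10.70, 10.43, 9.71 and 10.43 in L rats. Its difference of 0.08 ± 0.39 turned to -0.14 without H rats 13 and 15. Pde4d differed by 0.18 ± 0.21, Pde4b by 0.05 ± 0.08, Ppp1r1a by -0.09 ± 0.16, and Crem by -0.26 ± 0.22, or -0.42 without H rats 13 and 15. Ppp1r1a and Pde4b were low in BAT, with all 9 rats between 3.76 and 4.44 for Ppp1r1a and between 4.13 and 4.51 for Pde4b.

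**Figure D3:**
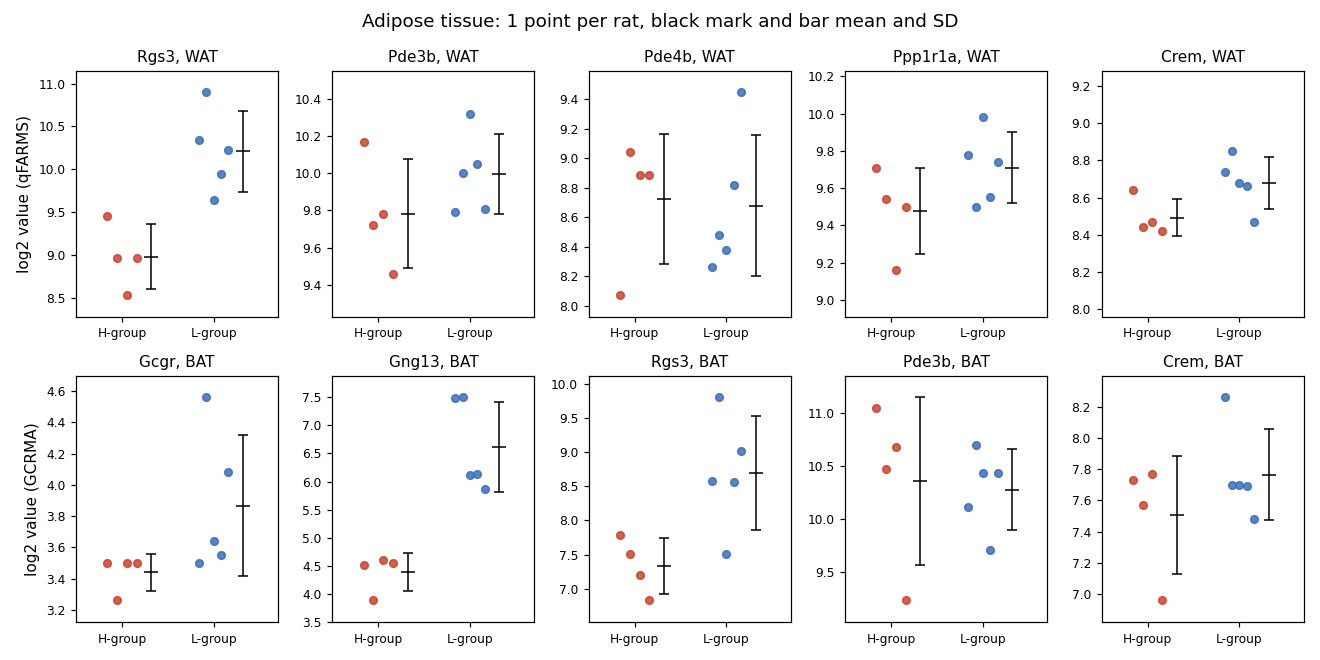
Log2 values of the genes that varied in WAT (top, qFARMS) and of 5 of the genes in BAT (bottom, GCRMA), 1 point per rat, H-group left and L-group right, with mean and SD; the vertical axes have their own range in each panel. The groups do not overlap for Rgs3 in WAT (highest H rat 9.46, lowest L rat 9.64) and Gng13 in BAT (4.61 and 5.87).

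**Figure D4:**
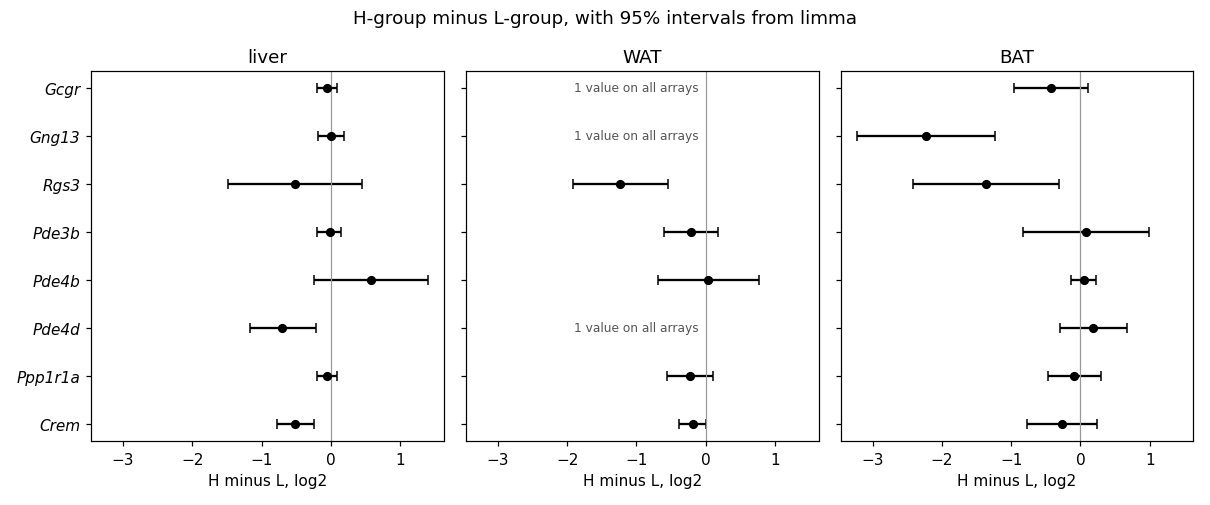
Log2 difference of the H-group minus the L-group (horizontal axis) for the 8 genes in liver, WAT and BAT, with 95% limma intervals that are not adjusted for the number of genes. Intervals wholly below 0 are those of Pde4d and Crem in liver, Rgs3 in WAT, and Rgs3 and Gng13 in BAT; the Crem interval in WAT ends at 0.00. The scales of the 3 tissues come from different summaries.

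Whether a rat that was high in 1 tissue was also high in another was asked for every gene with varying probe sets in both tissues, 18 relations in all, over the 9 rats and with the diet means removed, so that the diet difference plays no part. The question was chosen after seeing the data, a choice that the adjustment over the 18 relations does not cover. Only Rgs3 had relations that passed after adjustment. Between liver and WAT its values gave Pearson r = 0.86 (exact permutation p = 0.00521 over 2880 arrangements within diets, two-sided, adjusted p = 0.0469) and Spearman rho = 0.92 (exact permutation p = 0.00243, adjusted p = 0.0219). Between liver and BAT they gave r = 0.82 (exact permutation p = 0.00139, adjusted p = 0.025) and rho = 0.95 (exact permutation p = 0.000694, adjusted p = 0.0125). Between WAT and BAT r was 0.84 (exact permutation p = 0.0174, adjusted p = 0.104) and rho 0.88 (exact permutation p = 0.00903, adjusted p = 0.0542), which did not pass.
In 8 of the 9 rats liver and WAT deviated to the same side, and the same number held for liver and BAT. L rat 2 was the highest L rat and H rat 12 the highest H rat in all 3 tissues. Without these 2 rats r was 0.65 for liver and WAT and 0.85 for liver and BAT, and without L rats 2 and 3 it was 0.54 for WAT and BAT. Tissues of a rat were taken at the same time, so the time of sampling and the rat cannot be told apart. The other 15 relations had r from -0.65 to 0.63.

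**Figure D5:**
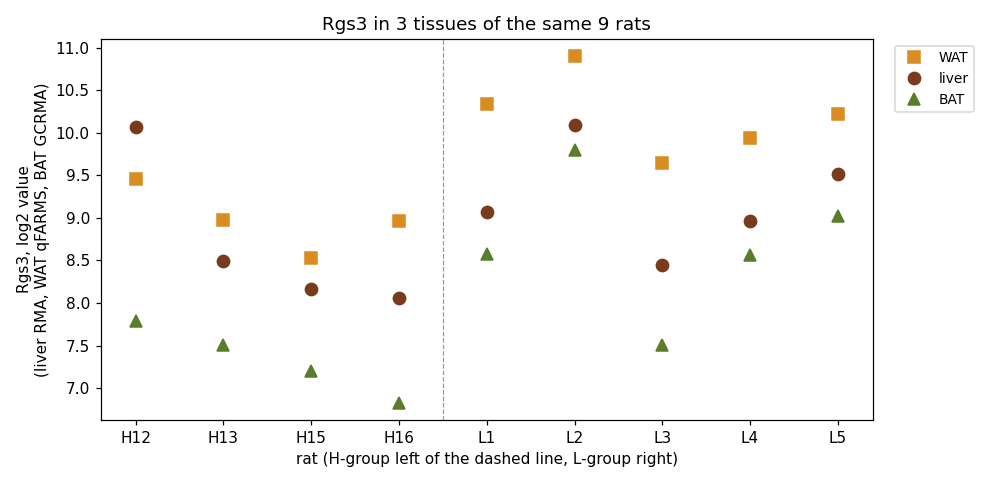
Rgs3 log2 values (vertical axis) in WAT, liver and BAT of the same 9 rats (horizontal axis), H rats left and L rats right of the dashed line; the 3 tissues were summarized differently, so only the pattern from rat to rat can be compared. L rat 2 (10.09 in liver, 10.90 in WAT, 9.80 in BAT) and H rat 12 (10.07, 9.46 and 7.79) are the highest of their groups in all 3 tissues.

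For each of the 8 genes the 2 genes with the highest Pearson correlation over the 13 livers were looked up among 12084 probe sets with a single other gene and a mean above the median. These are the highest of many, over arrays that share a normalization, and are given as a description. The closest was Cish, a cytokine-induced inhibitor of STAT5 signaling, to Rgs3, at r = 0.96 in liver and 0.96 also with the diet means removed. Over the 9 rats the same genes gave r = 0.96 in WAT and 0.83 in BAT, or 0.86 and 0.60 with the diet means removed. In liver Cish was at 7.38 in L rat 2 and 6.41 in H rat 12, which were high in Rgs3, and at 4.41, 4.22 and 4.26 in the other H rats. Gadd45a came next for Rgs3 at 0.91 in liver, but at -0.23 in WAT and 0.39 in BAT. The leading genes of the others were Cox15 and Get1 for Gcgr (0.90 and 0.89), Tlk1 and Cdo1 for Pde3b (0.87 and 0.82), Sugt1 and Thumpd3 for Pde4b (0.90 and 0.89), Gnpat and Tmem106b for Pde4d (both 0.87), Ahctf1 and Ddhd1 for Crem (0.92 and 0.88), Eea1 and Ldb1 for Ppp1r1a (0.91 and 0.86), and Pard6g and Nme1 for Gng13 (0.90 and 0.87). The correlations of these 14 genes in BAT ran from -0.37 to 0.66, so that the likeness in liver was not seen there for most of them. Among themselves the 8 genes showed little common movement in liver. With the diet means removed, their 28 correlations ran from -0.71 to 0.39 with a median of -0.07, those of the 5 varying genes in WAT from -0.87 to 0.56 (median -0.02), and those in BAT from -0.48 to 0.78 (median 0.34).

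The rest of the pathway was read from 9 lists holding 132 genes, of which 120 had a probe set of their own: receptors, G protein subunits, RGS proteins, adenylyl cyclases, other phosphodiesterases, protein kinase A with its anchors, protein phosphatase 1, the CREB family, and genes known to be induced by cyclic AMP. limma called none of the 120 in any comparison. At an unadjusted p under 0.05 it had 10 for the H- against the L-group in liver, 4 for H against M and 2 for M against L. It had 3 in WAT, where 38 of the 120 varied, and 7 in BAT, where 98 varied. Over all probe sets the share was 9.05, 5.89, 4.03, 5.84 and 4.47%, in the same order. The adipose shares include constant probe sets, and nothing is read from these counts. The median difference of all lists together was 0.00 in the liver comparisons, -0.02 in WAT and 0.01 in BAT, beside 0.00, 0.02 and 0.00 for all varying probe sets. In H against L livers 7 of 8 adenylyl cyclases lay slightly higher, with a median of 0.13. Other lists leaned the other way, with 14 of 19 G protein subunits, 10 of 14 RGS proteins and 6 of 8 protein phosphatase 1 genes lower. Their medians were -0.03, -0.03 and -0.04. These lists were picked from the 9 for their signs, and no gene passed the test.

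Rank products called 3 of the 120 genes in H against L livers, 2 in H against M and 2 in M against L. It called 5 in WAT and 6 in BAT. Over all probe sets it called 1.43, 0.77, 0.403, 1.85 and 1.99% in either direction, in the same order. Of the varying probe sets it called 10.9% in WAT, where 38 of the 120 varied, and 2.99% in BAT, where 98 varied. In liver Fos, an immediate early gene that CREB drives, was called higher in all 3 pairs, with averages of 5.97 ± 0.59, 7.09 ± 1.09 and 7.65 ± 0.79 in the L-, M- and H-group (SD). Its H minus L difference was 1.68 ± 0.48 (SE; limma adjusted p = 0.343), and its H and L rats did not overlap, as in 1.6% of probe sets. Rgs16, an RGS protein that follows feeding state in liver, was called lower in H than in L (-0.70 ± 0.70) and in M than in L (-1.65 ± 0.70), and higher in H than in M (0.95 ± 0.74). Gnb5, a G protein beta subunit, was called higher in H than in L (0.56 ± 0.24).
The limma adjusted p of Rgs16 and Gnb5 in these comparisons was 0.526 or above. In H against L livers the smallest limma p of each list otherwise fell to Adrb3 (0.15), Rgs2 (-0.25), Adcy5 (0.14), Pde8b (0.08), Prkar2a (-0.20), Ppp1r2 (-0.12) and Atf1 (-0.13), given as log2 differences, at adjusted p of 0.381 or above.

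In WAT rank products called 5 list genes lower in the H-group: the adrenergic receptor Adrb3 that starts lipolysis in rodent fat (-0.61 ± 0.30), Rgs2 (-0.28 ± 0.24), Adcy6 (-0.19 ± 0.07), and the cyclic AMP-induced genes Nr4a1 (-0.55 ± 0.53) and Fos (-0.40 ± 1.16), all with overlapping groups and limma adjusted p of 0.735 or above. None of the 5 was called when only varying probe sets were ranked. The remaining lists were led by Gnai1 (-0.07), Rgs5 (-0.22), Pde7a (-0.12), Prkar2b (-0.11), Ppp1cb (0.05), Sik2 (-0.18) and Cebpb (-0.19), none past the test.

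In BAT rank products called 4 list genes lower, Rgs7 (-1.31 ± 0.26), Tshr (-0.73 ± 0.26), Gnai1 (-0.54 ± 0.48) and Rgs2, and 2 higher, Nr4a1 (0.70 ± 1.12) and Fos (0.18 ± 1.49), both of which overlap widely. Rgs7, which pairs with Gnb5 in nerve cells, averaged 5.18 ± 0.42 in the H-group and 6.49 ± 0.37 in the L-group, without overlap (limma adjusted p = 0.503). In BAT 0.718% of probe sets, or 1.08% of those that varied, were lower in the H-group without overlap. Tshr, the thyrotropin receptor, averaged 2.74 ± 0.34 and 3.47 ± 0.42, near the bottom of the scale (limma adjusted p = 0.963). Pde4a, a relative of Pde4b and Pde4d, was higher in the H-group without overlap (0.23 ± 0.06, at 3.87 against 3.64). Such a separation was seen in 0.838% of probe sets, or 1.26% of those that varied. The limma adjusted p of Pde4a was 0.738, and rank products did not call it. The other lists were led by Gng11 (0.27), Adcy3 (0.30), Akap1 (-0.10), Ppp1r3b (-0.24), Sik2 (-0.24) and Ucp1 (0.20), the uncoupling protein of heat production, which averaged 14.81 ± 0.08 in the H-group and 14.61 ± 0.15 in the L-group (limma adjusted p = 0.97).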

How the data were processed

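RNA of liver, WAT and BAT was hybridized to Affymetrix rat arrays. The authors deposited log2 values, summarized with RMA for liver, qFARMS with quantile normalization for WAT and GCRMA for BAT, each tissue apart, and these were used as deposited, without the 57 control probe sets. Arrays have no read depth, and precision is limited by their number. Of the other 31042 probe sets, 20826 carry 1 gene symbol, 436 several and 9780 none in the platform annotation, with symbols updated through RefSeq. No pair of arrays held identical values.

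limma 3.58.1 (R 4.3.3) was fitted over all probe sets of a tissue, with the 13 liver arrays in 1 fit, and p-values were adjusted by Benjamini-Hochberg over all of them. Rank products was written in Python 3.11.15 (numpy 2.4.6, pandas 2.3.3, scipy 1.17.1) using 100 shuffles of every array's values and a false discovery rate of 0.05 per direction. Both were run on simulated data built from the liver arrays only, so their behavior on WAT and BAT values was not tested. Same-rat relations were tested by exact permutation of rats within diets.

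The genes, the pathway lists and the marker lists were chosen with earlier results of these data known. The text names the 8 genes, list genes that a test called, the list gene with the smallest limma p for the H- against the L-group of each tissue, Rgs2, and the 2 genes most like each of the 8 in liver. Alternatives were the other test, median centring, quantile normalization again, a filter on dim probe sets, a false discovery rate of 0.01, the mean of all probe sets, weighted arrays, a robust fit with a variance trend, liver fits limited to the compared diets, the muscle score as a covariate in BAT, and each rat left out. Ranking only varying probe sets, and BAT without H rats 13 and 15, were added after seeing the data. Promoter sequences are from RefSeq (GRCr8).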

Additional observations from a re-analysis of the deposited data

Results flagged for a closer look

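In 50 groups of 4 or 5 rats, each gene in each group with varying values, 6 held a rat that stood apart from the rest of its group by Dixon's criterion. In liver this was Pde4b in L rat 5 at 7.58, against 5.70 to 6.22 in the other 4 L rats. In WAT it was Pde4b in H rat 12 at 8.07, against 8.89 to 9.04 in the other H rats. In BAT it was Gcgr in H rat 13 at 3.26 (others 3.50), Gng13 in the same rat at 3.88 (others 4.51 to 4.61), Pde4b in L rat 2 at 4.33 (others 4.20), and Crem in L rat 1 at 8.26 (others 7.48 to 7.70). H rat 13 is 1 of the 2 rats whose BAT carried skeletal muscle transcripts, and the part of muscle in its Gcgr and Gng13 values was not tested. The BAT values of Gcgr and Pde4b come from groups in which most rats share 1 value, with ranges of 0.24 and 0.13.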

How the results depend on the processing

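Of 452 alternative values for the 37 log2 differences of the 8 genes, 446 stayed within the spread between replicates and none of the called ones changed sign. The 6 that moved are the means over all probe sets of a gene: -0.33 for Pde4d in H against L livers, -0.02 and 0.00 for Ppp1r1a in H against M and M against L livers, -0.03 for Crem and -0.41 for Rgs3 in WAT, and -0.44 for Rgs3 in BAT. By construction these average in dim or constant probe sets. limma called 0 of the 120 list genes in each comparison and under all 86 of its own alternatives, each rat left out included. Rank products called 3, 2 and 2 of them in liver (H against L, H against M, M against L), 5 in WAT and 6 in BAT, where limma called 0. The rank products counts for H against M livers were 1 at a false discovery rate of 0.01 and 1 with only probe sets above the median, and those for WAT were 3 and 3, and 0 when only varying probe sets were ranked. Leaving out each rat in turn gave rank products counts of 2 to 3 (H against L), 0 to 3 (H against M), 1 to 3 (M against L), 2 to 6 (WAT) and 3 to 7 (BAT), and limma counts of 0 to 0. The count for H against M livers was 0 without H rat 13 or H rat 16 and 1 without H rat 12, H rat 15 or M rat 8, that for M against L was 1 without M rat 9, that for WAT was 2 without L rat 2 and 3 without L rat 1, L rat 3, L rat 4 or L rat 5, and that for BAT was 3 without H rat 15. The cause of these changes was not tested. No paired analysis was possible because the diet groups compared in a tissue hold different rats and share no replicate numbers. In WAT constant probe sets and in BAT the 13221 probe sets that stay within 0.1 of the floor can show no difference.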
